A study of Mus musculus with 32 samples.

Results

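The mouse mitochondrial genome carries its own small set of genes, and the 37 genes whose symbols begin with mt- were followed here through 32 liver tumour libraries. They were found by mapping the gene identifiers of the count tables to symbols. All 37 were present among the 54446 genes of the tables, as 13 mRNA genes, 2 rRNA genes and 22 tRNA genes. The rule uses symbols and no measured value, although this gene group was taken up with earlier results of these data known.

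The tumours grew from BNL-MEA cells, a transformed line derived from BALB/c mouse liver cells, placed under the capsule of the left liver lobe of BALB/c mice, so host liver cells surrounded every tumour. All groups carried these tumours. The study's methods give 5 days of treatment where regorafenib was set beside DC-101, and for the anti-PD1 antibody repeated injections on days counted from implantation. The dose experiment (p112 in the labels) held 4 vehicle tumours, 3 tumours under regorafenib at 5 mg/kg/day (low dose) and 3 under 20 mg/kg/day (high dose). The DC-101 experiment (p103) held 4 vehicle tumours, 3 under the low dose and 3 under DC-101, an antibody against mouse VEGFR2 (800 ug per injection, on days 1, 3 and 5). In the third, the anti-PD1 experiment (p101), the groups had 3 tumours each and received vehicle, the low dose, an anti-PD1 antibody, or the low dose together with that antibody (the combination). Regorafenib is a kinase inhibitor taken by mouth whose targets include the receptors for VEGF. The labels call the 3 experiments batches, and they do not give the age of the mice or say whether every replicate is a separate animal, so p-values measure the spread between these samples.

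Mitochondrial DNA is transcribed from both strands as long precursors that are cut at the tRNAs into mRNAs, rRNAs and tRNAs. The 13 mRNAs encode core subunits of complexes I, III and IV and of the ATP synthase, the 2 rRNAs (mt-Rnr1, the 12S, and mt-Rnr2, the 16S) build the mitochondrial ribosome, and the tRNAs serve it. Hepatocytes are rich in mitochondria. All remaining subunits of these complexes, and the machinery that copies, transcribes and reads mitochondrial DNA, come from nuclear genes. Libraries were prepared with a kit that selects polyadenylated RNA and keeps the strand, so rRNAs and tRNAs are measured only as far as they pass that selection.

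Library totals were between 16767130 and 27693689 counts. The second vehicle library of the dose experiment stood apart on the minus strand (described with mt-Nd6), and the mt-Nd6 and high-dose rRNA values are given with and without it. Of the 22 hepatocyte markers followed as a sign of host liver in a sample, none was at 0 in any library, and their sum was between 0.0107% and 9.42% of counts.

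The 37 genes did not all give a usable measurement. Of them, 28 had a count in at least 1 library, and the remaining 9, all tRNA genes, were at 0 everywhere. Among the mRNAs, mt-Nd1, mt-Nd2, mt-Co1, mt-Nd4, mt-Nd5, mt-Cytb and mt-Nd6 had counts in all 32 libraries, as did both rRNAs. The other 6 mRNAs, mt-Co2, mt-Atp8, mt-Atp6, mt-Co3, mt-Nd3 and mt-Nd4l, which lie next to each other between chrM:7013 and chrM:10173, were nearly absent: the highest value of any of them was 36 counts, for mt-Co3. Their summed count was 0 in all 10 libraries of the DC-101 experiment, at most 4 in the anti-PD1 experiment, and between 25 and 71 in the dose experiment. A count of 0 allows up to 3 counts, which is up to 0.167 CPM (counts scaled to the same library total) in the DC-101 experiment. The neighbouring mt-Co1, from the same precursor, had at least 21894 counts in every library.

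Most of the stretch that was not counted has copies in the nuclear genome. Every 100-base window of each mt- gene was looked up in all annotated transcripts of the same genome build, 100 bases being the length of a single read. The study sequenced such reads in pairs, and matches of whole pairs were not looked up. For mt-Co2, mt-Atp6, mt-Co3, mt-Nd3 and mt-Nd4l, between 97.6% and 99.9% of the windows also occurred, letter for letter, in a transcript from another chromosome. For mt-Nd4 the share was 60.8%, for mt-Co1 30.8% and for mt-Nd2 3.19%, and for mt-Nd1, mt-Nd5, mt-Nd6, mt-Cytb and both rRNAs it was 0. Of the copies, 7 are annotated as unprocessed pseudogenes in a row on chromosome 1, at chr1:24611535-24616197 of GRCm38 on the minus strand. Over the aligned bases, Gm28661 was identical to mt-Co2 in 681 of 681, Gm10925 to mt-Atp6 in 678 of 678, Gm28437 to mt-Co3 in 783 of 783 and Gm10222 to mt-Nd4l in 294 of 294. No annotated transcript copies mt-Atp8, but the 233 bases between Gm28661 and Gm10925 have nearly the length of the 230 bases that separate mt-Co2 from mt-Atp6.

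The first 60 bases of 2 of these genes are shown with their copies, because they show how close the copies are: over these 60 bases mt-Co2 and Gm28661 are identical, so a read of such a stretch has 2 equal matches, while mt-Nd3 and Gm28438 differ at 1 base. They come from the Gencode transcripts of GRCm38. The mt- genes are on the plus strand at chrM:7013-7072 and chrM:9459-9518, and the copies on the minus strand at chr1:24615506-24615565 and chr1:24613060-24613119. The capitals mark the only base that differs between mt-Nd3 and Gm28438, T3C counted from the first base of mt-Nd3.
mt-Co2: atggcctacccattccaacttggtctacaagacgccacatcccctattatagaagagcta
Gm28661: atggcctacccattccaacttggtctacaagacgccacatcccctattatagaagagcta
mt-Nd3: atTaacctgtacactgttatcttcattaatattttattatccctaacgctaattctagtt
Gm28438: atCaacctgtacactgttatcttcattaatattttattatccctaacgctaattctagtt

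The nuclear copies did not hold the missing counts. The 7 pseudogenes together had between 258 and 1022 counts per library of the dose experiment, but only between 5 and 16 with DC-101 and between 3 and 41 in the anti-PD1 experiment, against at least 21894 for mt-Co1 alone. The dose experiment thus stood above both other experiments for the copies and for the 6 unread genes at once, with no overlap. The study's methods name the GeneCounts mode of STAR for the counts. What became of reads with several matches, and whether it differed between the experiments, was not tested. All summed shares below leave these 6 mRNAs almost entirely out and may cover only part of mt-Nd4 and mt-Co1. For that reason no test of level was made between experiments.

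**Figure D1:**
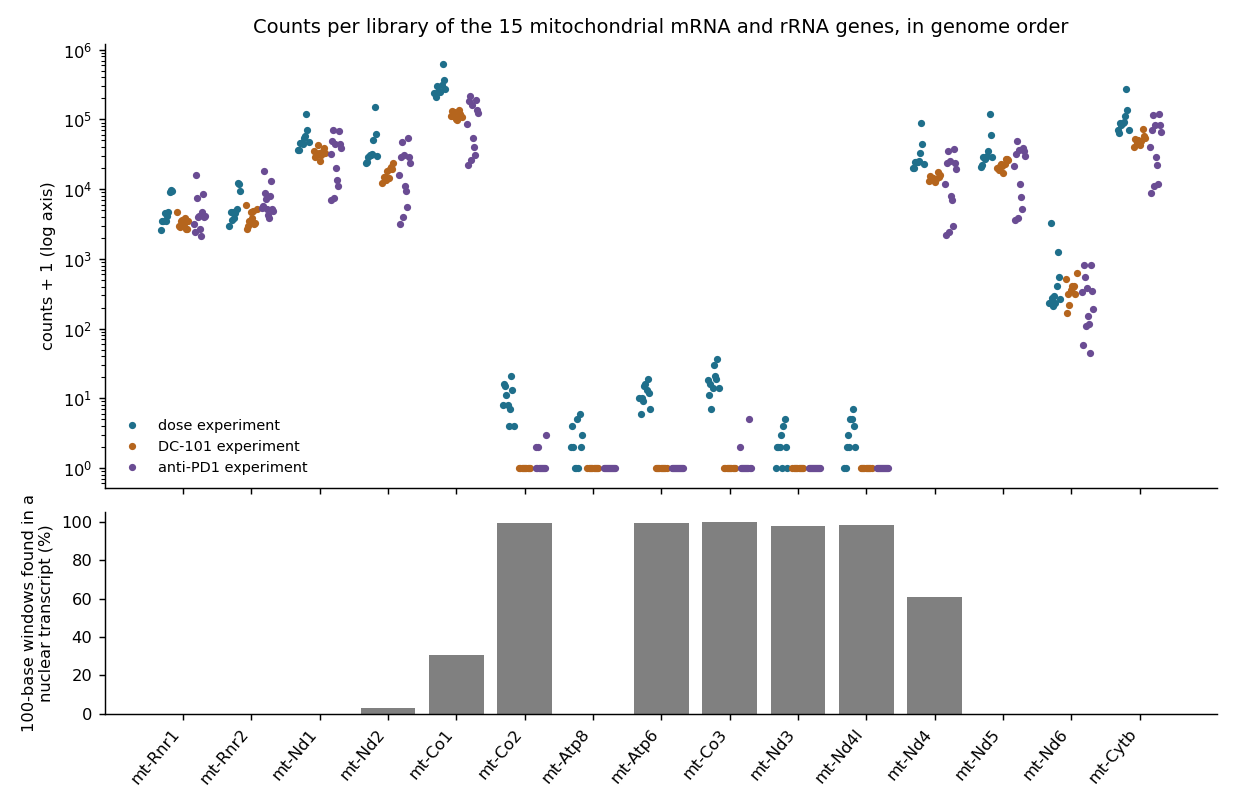
Upper panel: counts plus 1 (log axis) of the 15 mitochondrial mRNA and rRNA genes in genome order, 1 point per library, coloured by experiment. Lower panel, as bars: share of each gene's 100-base windows that also occur in a transcript from another chromosome (%). The 6 genes at the bottom of the upper panel, of which mt-Atp8 has no annotated copy, reach at most 36 counts, while mt-Co1 has at least 21894.

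Levels per length are given as the median CPM of the whole gene divided by its number of windows that no nuclear transcript shares, per 1000 such windows. This takes the shared windows to have given no counts, which was not tested. mt-Co1, the catalytic subunit of complex IV, was highest, with 11639 in p112 (dose), 5394 in p103 (DC-101) and 4549 in p101 (anti-PD1). mt-Cytb of complex III followed with 3208, 2197 and 2175, and mt-Nd1 of complex I with 2305, 1809 and 1781. Below these came mt-Nd4, mt-Nd2 and mt-Nd5, the last with 679, 608 and 636. On this scale the order of the 6 genes was the same in all 3 experiments. Divided by full gene length it was not: mt-Nd2 (1234 CPM per 1000 bases in p112) lay above mt-Nd4 (717, 482 and 488 in p112, p103 and p101) in each, and mt-Nd5 (643 in p112, 575 in p103 and 601 in p101) above mt-Nd4 in p103 and p101 only. Both rRNAs were far lower, with 212, 180 and 212 for mt-Rnr1 and 131, 112.2 and 175 for mt-Rnr2. mt-Nd6, the only mRNA on the minus strand, was lowest with 27, 42 and 26. Neighbours in this order were not tested against each other.

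Within the mitochondrial mRNA counts, mt-Co1 made up between 37.4% and 58.4% per library and mt-Cytb between 14.96% and 23.6%. The mt-Co1 share was between 45.0% and 58.4% in the dose experiment and between 37.4% and 47.7% in the anti-PD1 experiment.

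All mt- genes together took 2.01% ± 0.208 of counts in the vehicle tumours of the dose experiment (SD, n = 4), with 1.84%, 2.31%, 1.98% and 1.90% in the single libraries. In the DC-101 experiment the vehicle tumours held 1.16% ± 0.116 (SD, n = 4), from 1.05% to 1.31%. In the anti-PD1 experiment the 3 vehicle tumours held 0.919%, 0.260% and 1.90%, which is a mean of 1.03% ± 0.825 (SD, n = 3). The vehicle libraries lay close together in the first 2 experiments and far apart in the third. In bulk samples such as these, fewer cells of a type and less RNA per cell cannot be told apart.

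The anti-PD1 experiment had the widest spread. Its 12 libraries ran from 0.260% to 2.34%, a 9.01-fold range with a coefficient of variation of 65.2%, against 1.42-fold and 12.4% over the 10 libraries of the DC-101 experiment. The dose experiment ran 3.04-fold, most of it from the high dose. Low and high libraries lay side by side in the vehicle group and under the low dose, which had 2.23%, 0.312% and 1.84%. Under anti-PD1 alone all 3 libraries were at most at 0.680%, and under the combination all 3 were at least at 1.36%. Library totals there were between 20463408 and 25336811 counts.

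Each of the well-counted mRNAs took part in that spread. Over the 12 libraries mt-Nd1 ran from 335 to 3009 CPM, mt-Co1 from 1033 to 8731, mt-Cytb from 416 to 5230, mt-Nd4 from 104 to 1648 and mt-Nd2 from 150 to 2410. These are ranges of 8.99-fold, 8.45-fold, 12.6-fold, 15.8-fold and 16.03-fold. The median gene with a mean of at least 1000 counts ranged 2.65-fold in the same libraries. The rRNAs ran from 103.4 to 728 CPM for mt-Rnr1 (7.04-fold) and from 187 to 812 for mt-Rnr2 (4.34-fold), with coefficients of variation of 74.3% and 55.7% against 63.1% for mt-Nd1 and 65.2% for mt-Co1. Their highest value came from the third vehicle library in both cases.

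The rRNAs made up a larger part of the mt- counts in the poorest libraries. The 3 libraries with the lowest mitochondrial share were the second vehicle (0.260%), the second low dose (0.312%) and the third anti-PD1 library (0.370%), and in them the rRNAs made up 14.9%, 16.8% and 15.7% of the mt- counts. In the other 9 libraries of this experiment that share was between 2.397% and 8.11%, and in the other 2 experiments it was at most 4.31%. As a share of all counts, the rRNAs in those 3 libraries were at 0.0387%, 0.0525% and 0.0581%, inside the range of the other libraries, while their mRNA shares of 0.221%, 0.259% and 0.312% were the lowest of all 32.

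**Figure D2:**
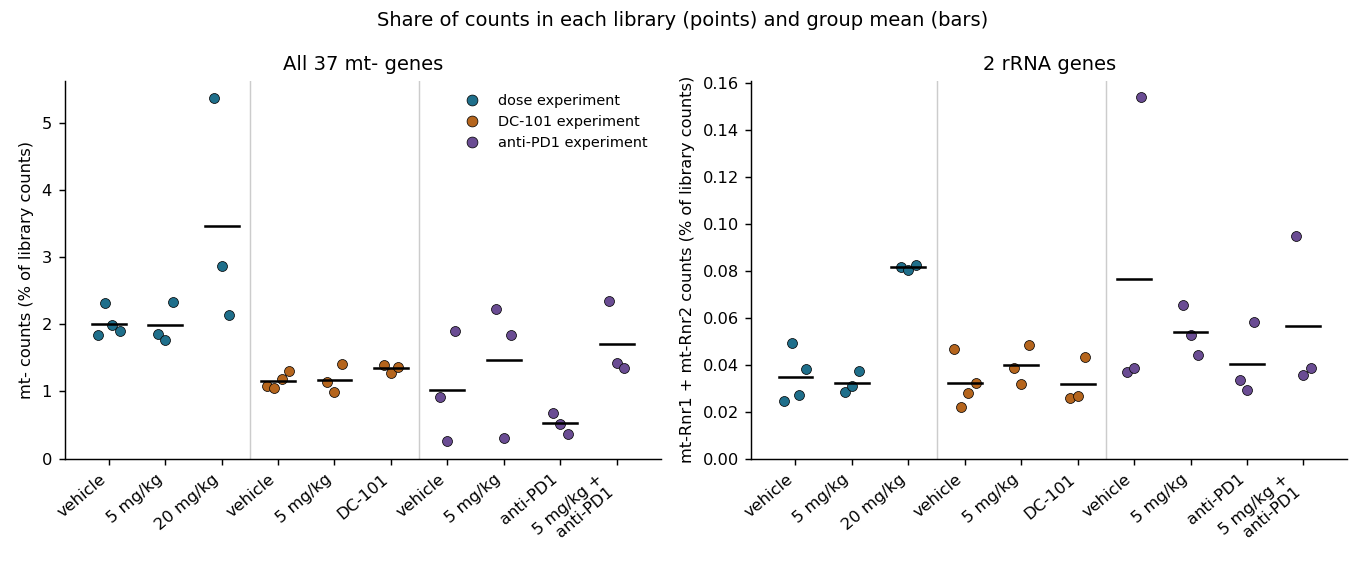
Counts of all 37 mt- genes (left) and of the 2 rRNA genes (right) as % of library counts, 1 point per library and a bar for the group mean, in the order of the 3 experiments. The 3 high-dose libraries spread from 2.14% to 5.37% on the left and lie between 0.0804% and 0.0822% on the right.

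Both mitochondrial rRNA genes rose under the high dose, against vehicle and against the low dose, and no mRNA or tRNA gene passed the edgeR test. These are 2 of 14 tested mt- genes, where 15.6% of all genes passed against vehicle and 4.22% against the low dose. In every other comparison 0 mt- genes passed, and at most 1.52% of all genes did. Both comparisons use the same high-dose libraries. mt-Rnr1 (chrM:70-1024) was at 115, 208, 134 and 187 CPM in the vehicle tumours, at 134, 148 and 177 under the low dose and at 350, 365 and 411 under the high dose. The high-dose tumours lay above all 7 others. Its log2 change was 1.42 (SE 0.25) against vehicle, with an adjusted p of 0.024 in edgeR's quasi-likelihood test, and 1.48 (SE 0.27) against the low dose, with an adjusted p of 0.0256 in the same test.

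mt-Rnr2 (chrM:1094-2675) was at 129, 284, 135 and 193 CPM under vehicle, at 149, 162 and 196 under the low dose and at 464, 439 and 411 under the high dose, again without overlap. Its log2 change was 1.48 (SE 0.32) against vehicle (edgeR adjusted p = 0.0337) and 1.59 (SE 0.35) against the low dose (edgeR adjusted p = 0.0427). The summed rRNA share was 0.0813% ± 0.000891 under the high dose and 0.0346% ± 0.0114 under vehicle (SD, n = 3 and 4), a 2.35-fold difference with an exact 2-sided permutation p of 0.0571, the smallest this design allows. Without the second vehicle library the vehicle share was 0.0298% ± 0.00724 (SD, n = 3), and the log2 changes against vehicle were 1.57 for mt-Rnr1 and 1.75 for mt-Rnr2, both with an edgeR adjusted p of 0.0488.

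Among the 14 mt- genes that passed the filter on low counts in this experiment, 2 (both rRNAs) were called in the high dose against vehicle, where 15.6% of all 16525 genes were called and 8.8% as higher. The members' share was thus near the background. Against the low dose the same 2 of 14 were called, with a background of 4.22%, and of 1.74% for higher genes. Leaving out single libraries moved these counts between 0 and 9. Without the third high-dose library 9 of 17 tested mt- genes were called in each comparison, where 41.1% of all genes were called against vehicle and 26.3% against the low dose. Against vehicle, 0 were called without vehicle library 1, 3 or 4, where 0.231%, 0.091% and 0.158% of all genes were, and 1 (mt-Rnr1) without low-dose library 1 or 2 or high-dose library 1 or 2, at backgrounds of 0.785%, 1.65%, 5.65% and 3.19%. Against the low dose, 0 were called without low-dose library 1 or 2, where 0.361% and 0.465% of all genes were, and 1 (mt-Rnr1) without vehicle library 1, 3 or 4, low-dose library 3, or high-dose library 1 or 2, at backgrounds between 1.45% and 3.51%. The log2 change of mt-Rnr1 against vehicle stayed between 1.26 and 1.57 and that of mt-Rnr2 between 1.20 and 1.75 when 1 library was left out. With the replicate number as a block, 0 were called in both comparisons, where 0.00605% of all genes (1 gene) were called in each.

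The mRNAs lay higher in part of the high-dose tumours. mt-Nd5 was at 4579, 2244 and 1236 CPM under the high dose against 899, 1316, 1107 and 1082 under vehicle (log2 change 1.67, SE 0.50, edgeR adjusted p = 0.0506). mt-Nd2 was at 5812, 2329 and 1304 against 1037, 1482, 1111 and 1256 (1.77, SE 0.57, edgeR adjusted p = 0.057). In both genes the third high-dose tumour sat inside the vehicle range only through the second vehicle library, the one set apart on the minus strand. It lay above the other vehicles. mt-Co1 was at 23796, 13942 and 11930 against 10628, 12393, 11348 and 10077 (0.90, SE 0.37, edgeR adjusted p = 0.106), and mt-Cytb, mt-Nd4 and mt-Nd1 had log2 changes of 1.25, 1.38 and 1.07 with adjusted p-values of 0.0871, 0.0693 and 0.0792 in the edgeR test. The median over the 14 genes was 1.31 and 13 lay above 0, all but mt-Nd6 (-0.67, and 1.83 without the second vehicle library, when all 14 lay above 0), against a median of 0.02 over all genes, of which 51.4% lay above 0. These 14 include mt-Co2, mt-Atp6 and mt-Co3, which had at most 36 counts.

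The summed share showed the same order. It was 5.37%, 2.86% and 2.14% under the high dose, a mean of 3.46% ± 1.69 (SD, n = 3), and 1.85%, 1.77% and 2.34% under the low dose, a mean of 1.99% ± 0.308. The first high-dose library held the highest share of all 32. The third lay above every vehicle library but the second (2.31%). Without that vehicle library the vehicle mean was 1.91% ± 0.0700 (SD, n = 3). Against vehicle the difference was 1.45 percentage points with an exact permutation p of 0.114, and against the low dose it was 1.47 points with an exact permutation p of 0.2. Without the first high-dose library the difference from vehicle was 0.492 points, and over all single libraries left out it lay between 0.492 and 2.11 points. The difference from the low dose lay between 0.516 and 2.13 points in the same way.

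Other genes moved with these values in the high-dose tumours. The summed hepatocyte markers were at 9.42%, 3.04% and 0.615% of counts in the 3 high-dose libraries, against 0.228% to 1.24% under vehicle and 0.426% to 3.89% under the low dose. All 22 had a log2 change above 0 against vehicle, with a median of 3.82, and 2 passed the test, Hpd and Cyp2e1. The order of the high-dose libraries was the same as for the mitochondrial mRNAs and mt-Rnr2, and the reverse for mt-Rnr1. The third, with a hepatocyte sum inside the vehicle range, had the highest rRNA share at 0.0822%, and the low-dose library with 3.89% hepatocyte counts had an rRNA share of 0.0373%. With the hepatocyte marker score in the fit, mt-Rnr1 had a log2 change of 1.03 against vehicle (edgeR adjusted p = 0.0609) and mt-Rnr2 of 0.92 (edgeR adjusted p = 0.142), while against the low dose both still passed, with 1.23 and 1.22. In that fit 0.926% of all genes were called against vehicle and 3.85% against the low dose. The part of host liver in these values beyond that fit was not tested.

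Further lists moved under the high dose as well, where the background was 8.8% of all genes called as higher and 6.82% as lower. Proliferation genes fell (7 of 12 passed, median log2 change -1.33), as did macrophage markers (6 of 7, median -1.42). Of 4 tested RNAs that stay in the nucleus, 3 rose, Meg3, Neat1 and Malat1, with a median of 1.42. The sum of the 5 listed was between 0.0874% and 0.106% of counts under the high dose and between 0.0242% and 0.0504% under vehicle, without overlap. Of 6 T cell markers 3 rose, Cd3e, Cd3g and Cd3d (log2 changes 1.86, 1.69 and 1.61, list median 1.65). Of 6 epithelial tumour markers 2 rose, Krt19 and Gpc3 (2.60 and 3.16, list median 1.96). Both were low without the high dose, with mean log2 CPM of 1.23 and 0.29 under vehicle and 0.08 and 0.11 under the low dose. Under the high dose they were at 3.80 and 3.12. Of 6 tested erythrocyte genes 1 fell, the globin gene Hbb-bs (-2.25, list median -2.08), as did 1 of 7 endothelial markers, Emcn (-1.86, list median -0.42). None of 6 fibroblast and none of 3 tested skeletal muscle genes passed. Of 4 tested RNAs that lack a poly(A) tail 1 rose, Rn7sk, the RNA of the 7SK particle (2.07, edgeR adjusted p = 0.033, list median 1.22). The 14 such RNAs followed summed to between 0.00493% and 0.0117% of counts under the high dose and to between 0.00395% and 0.00694% under vehicle, so those groups overlapped. The part of these lists in the mitochondrial values was not tested.

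**Figure D3:**
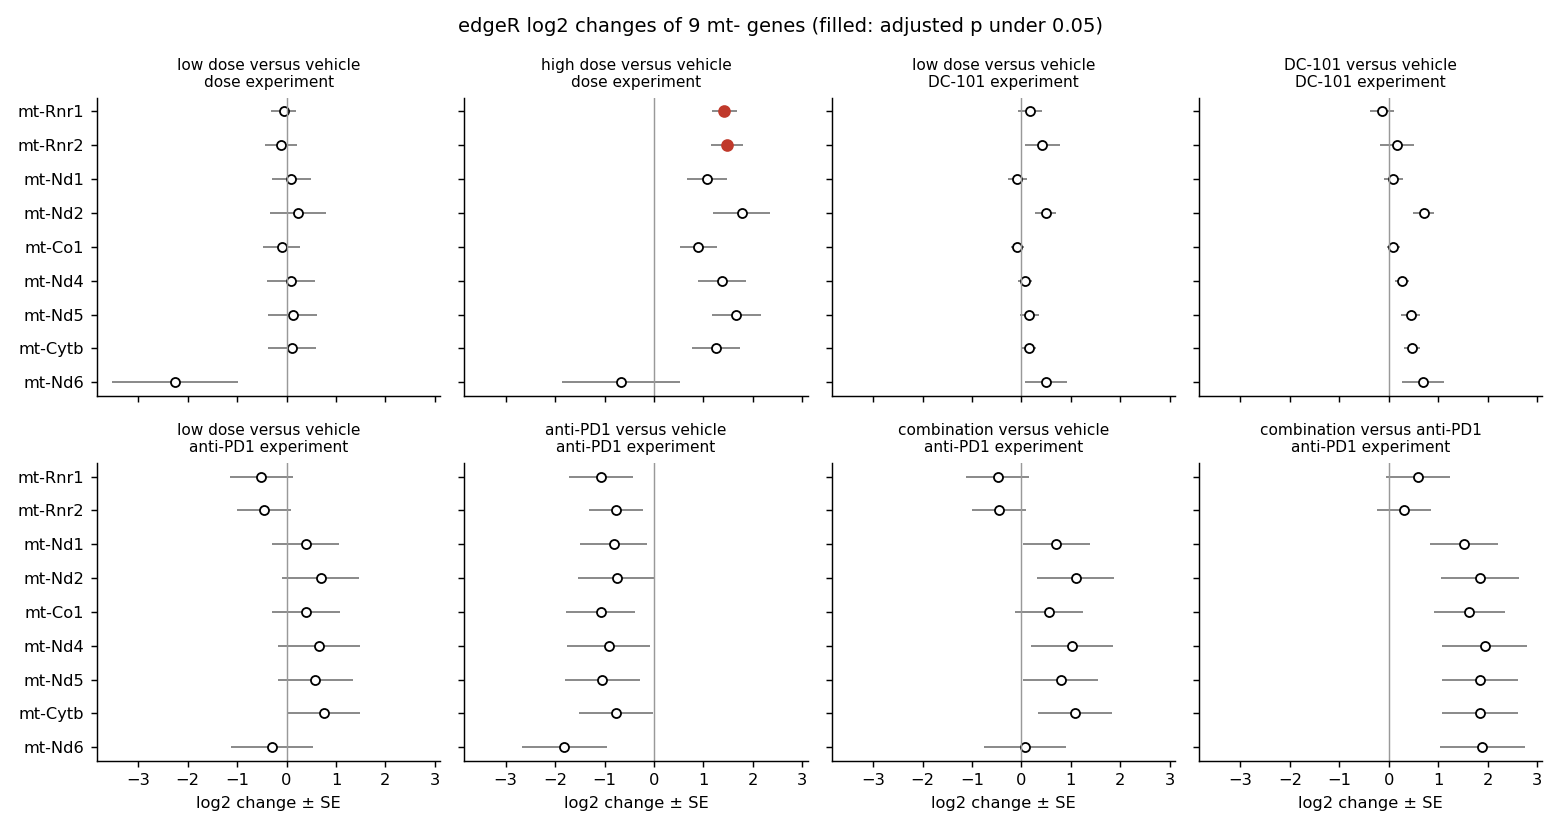
Log2 change (points) and SE (lines) of 9 mt- genes in 8 comparisons from the edgeR fits, with filled points where the adjusted p is under 0.05. Only mt-Rnr1 and mt-Rnr2 under the high dose are filled, and under anti-PD1 all 9 points lie below 0 without passing the test.

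The nuclear partners of these genes were read against the same background, 15.6% of all genes called under the high dose. There, 1 of 36 nuclear complex I genes passed (Ndufv3, log2 change 0.91, edgeR adjusted p = 0.0362), and none of 4 complex II, 9 complex III, 10 complex IV and 15 complex V genes did. Their medians were between 0.28 and 0.77. Of 77 tested genes of the mitochondrial ribosome, whose RNAs are mt-Rnr1 and mt-Rnr2, 1 fell (Mrpl13, -0.51) and the median was 0.02. None of the 9 genes of mitochondrial transcription and none of the 8 of mitochondrial DNA replication passed, with medians of 0.24 and 0.03, and neither did any of 12 genes of mitochondrial RNA stability and decay (median 0.01). Of 12 genes of the mitochondrial stress response 1 rose, Lonp1, a protease of the matrix (0.86, edgeR adjusted p = 0.043, list median 0.28). Of 10 RNA processing genes 1 fell, Trnt1, which adds the CCA end to tRNAs (-0.64). Of 7 biogenesis regulators 1 rose, Ppargc1a (PGC-1alpha, a coactivator of genes of mitochondrial biogenesis that fasting induces in liver), with a log2 change of 2.78 (SE 0.54, edgeR adjusted p = 0.0285).

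No change of the mt- genes was detectable under the low dose. In the fit over all 3 experiments 0 of 13 tested mt- genes passed, where 1.52% of all genes did, and 0 had an unadjusted p under 0.05 (15.6% of all genes). The unadjusted count was 0 to 3 over 7 alternative settings and 0 to 2 with 1 library left out. The share of all genes at that level was not computed for those fits. The DESeq2 and limma-voom fits also called 0, where they called 6.16% and 1.8% of all genes. Log2 changes were between -0.61 for mt-Nd6 (0.18 without the second vehicle library of p112) and 0.93 for the tRNA mt-Tm, with a median of 0.27, and for the rRNAs they were -0.11 (SE 0.26) and -0.03 (SE 0.23). The share difference, averaged over the experiments, was 0.144 percentage points, with a p of 0.61 in the exact permutation test within experiments. It lay between 0.0155 (without the first low-dose library of p101) and 0.335 points (without the second) when 1 library was left out. Within the experiments the differences were -0.0243, 0.0210 and 0.434 points. The last lay between 0.0498 and 1.01 points without those same libraries, and was 0.0509 without the second vehicle library and 0.871 without the third. In the same comparisons 0 mt- genes of 14, 11 and 11 passed in edgeR, at backgrounds of 0%, 0.0248% and 0%. Unadjusted p-values under 0.05 were found for 0, 2 and 0 of them, against 4.94%, 17.1% and 11.8% of all genes. Those 2 included mt-Tm, which passed the filter on low counts there only through treated libraries. DESeq2 also called 0, where it called 0.514%, 6.8% and 2.62% of all genes, and so did limma-voom, at 0%, 0.0248% and 0%. In an edgeR interaction test of the low-dose change against the experiment, 0 of 13 passed, and 0 of 17238 genes (0%) in all. None of the 13 had an unadjusted p under 0.05 in that edgeR test.

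In the DC-101 experiment the low dose and DC-101 share their vehicle tumours, and no mt- gene passed under either. The share was 1.399%, 1.27% and 1.37% under DC-101, a mean of 1.35% ± 0.0653 (SD, n = 3), and 1.14%, 0.991% and 1.404% under the low dose. Against vehicle the difference was 0.190 points under DC-101 (exact permutation p = 0.114). None of 11 mt- genes passed under DC-101, where 0% of all genes did, and 4 had an unadjusted p under 0.05 against a background of 13.2%. DESeq2 and limma-voom called 0 as well, at backgrounds of 2.31% and 0%. Those 4 were mt-Tm, mt-Nd2, mt-Cytb and mt-Nd5. Of these, mt-Tm passed the filter on low counts only through treated libraries, so the filter favoured its place in the count. That count of 4 was 2 without the first or the third DC-101 library and 1 with the hepatocyte score in the fit, and otherwise between 3 and 5 with 1 library left out. Between the low dose and DC-101, 0 of 11 passed at a background of 0% and 0 had an unadjusted p under 0.05 (8.45% of all genes) in edgeR. DESeq2 and limma-voom called 0, at backgrounds of 1.16% and 0%. Without the third low-dose library 4 had an unadjusted p under 0.05 in edgeR, and without the third DC-101 library 1 did. For the refits of both comparisons the share of all genes at that level was not computed. The share under the low dose differed from that under DC-101 by -0.169 points (exact permutation p = 0.4). With 1 library left out this lay between -0.283 and -0.0759.

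mt-Nd2, a complex I subunit, was at 535, 592, 726 and 622 CPM under vehicle in that experiment, at 849, 650 and 1092 under the low dose and at 909, 857 and 1192 under DC-101. All 3 DC-101 libraries and 2 of 3 low-dose libraries lay above every vehicle library. The log2 changes were 0.49 (SE 0.21, edgeR adjusted p = 0.282) and 0.71 (SE 0.21, edgeR adjusted p = 0.32). No hepatocyte marker passed the test under DC-101. The median log2 change of the 22 was 3.60, with 22 of 22 above 0, and their sum was between 0.0107% and 0.748% under vehicle and between 0.0245% and 3.96% under DC-101, so the groups overlapped.

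In the anti-PD1 experiment no mt- gene passed in any comparison, and neither did any other gene in edgeR (0% in all 4). DESeq2 called 0 mt- genes as well, where it called between 0.885% and 3.7% of all genes, and limma-voom called no gene at all. Under anti-PD1 alone the share was 0.680%, 0.518% and 0.370%, a mean of 0.522% ± 0.155 (SD, n = 3), and all 11 tested mt- genes lay below vehicle (45.4% of all genes lay above), with a median log2 change of -0.92 and 0 at an unadjusted p under 0.05 (13.7% of all genes). That count was 2 of 12 without the first vehicle library, 4 of 12 without the second and 1 of 11 without the first combination library. The share of all genes at that level was not computed for these refits. The 3 anti-PD1 libraries lay inside the vehicle range. The share difference was -0.504 points, and it lay between -0.887 without the second vehicle library and -0.0672 without the third. The exact permutation p for the share was 0.5, where 3 against 3 cannot go below 0.1. The hepatocyte sum was between 0.149% and 0.396% under anti-PD1 and between 1.15% and 1.77% under vehicle, without overlap. Its part was not tested.

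Under the combination the share was 2.34%, 1.43% and 1.36%, a mean of 1.71% ± 0.552 (SD, n = 3). All 3 libraries lay above the 3 of anti-PD1 alone, a 3.27-fold difference with an exact permutation p of 0.1, the smallest possible. The 11 tested genes all lay higher than under anti-PD1, as did 49.6% of all genes, with a median log2 change of 1.85, and 8 had an unadjusted p under 0.05, where 8.68% of all genes did. Their adjusted p-values in edgeR were between 0.539 and 0.574. The mRNAs had log2 changes between 1.53 for mt-Nd1 and 1.94 for mt-Nd4, and the rRNAs 0.59 and 0.30. That count of 8 was 0 without the third anti-PD1 library or the first combination library, 2 without the first or second anti-PD1 library, 4 without the second combination library and 5 without the first vehicle library. With the hepatocyte score in the fit it was 0. The share of all genes at an unadjusted p under 0.05 was not computed for these refits. The hepatocyte sum was between 0.149% and 0.396% under anti-PD1 and between 0.617% and 2.69% under the combination, and 22 of 22 of these markers had a log2 change above 0 (median 2.36). The 5 nuclear-retained RNAs summed to between 0.0140% and 0.0170% of counts under anti-PD1 and between 0.0247% and 0.0439% under the combination, without overlap, and their part was not tested. The combination and vehicle groups overlapped, with an exact permutation p of 0.4 for the share and 0 of 11 genes at an unadjusted p under 0.05 (8.2% of all genes). Over the 11 share comparisons in all experiments, no adjusted p was under 0.419.

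The ratio of rRNA to mRNA counts was compared in the same way. It was lower under the combination than under anti-PD1 by 1.39 on the log2 scale, without overlap (exact permutation p = 0.1). Over 33 tests of the rRNA to mRNA, tRNA to mRNA and mt-Nd6 to other mRNA ratios, no adjusted p was under 0.776. Among these tests 3 further ratios did not overlap between groups. The tRNA to mRNA ratio was higher under the low dose than under vehicle in the DC-101 experiment by 1.39 (exact permutation p = 0.0571), the rRNA to mRNA ratio was higher under the low dose than under DC-101 by 0.56 (exact permutation p = 0.1), and the mt-Nd6 ratio under anti-PD1 differed from vehicle by -0.77 (exact permutation p = 0.1). In the high dose against vehicle the rRNA to mRNA ratio differed by 0.63 (exact permutation p = 0.171), and by 0.318 to 1.01 with 1 library left out. The rRNAs made up 1.52%, 2.81% and 3.84% of mt- counts in the high-dose libraries.

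Across the 32 libraries the mitochondrial share was set against 8 other library measures, after centring each within its experiment. It rose with a score of 5 nuclear-retained RNAs (Malat1, Neat1, Kcnq1ot1, Meg3 and Snhg11, mean log2 CPM), with Pearson's r = 0.69 (adjusted p = 0.00016, 100000 permutations within experiments) and Spearman's rho = 0.73 (adjusted permutation p = 0.00032). Without the 2 libraries farthest from the median score r was 0.73, and centred within treatment groups it was 0.60. Taken by experiment, r was 0.70 in p112 (n = 10, adjusted permutation p = 0.0508), -0.27 in p103 (n = 10, adjusted p = 0.766) and 0.84 in p101 (n = 12, adjusted p = 0.0103). Spearman's rho was 0.88, -0.07 and 0.92, with adjusted permutation p-values of 0.0191, 0.931 and 0.00264. Without the 2 farthest libraries of each experiment, r was 0.50, -0.31 and 0.91. The relation did not hold in the DC-101 experiment.

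The hepatocyte score had a weaker relation, with r = 0.38 (adjusted permutation p = 0.0111), rho = 0.36 (adjusted p = 0.0407) and r = 0.45 without the 2 farthest libraries. Within the experiments it was 0.83, 0.22 and 0.25, and only the dose experiment gave an adjusted p under the threshold (0.0134). Centred within treatment groups r was 0.31 (permutation p = 0.107). Proliferation ran the other way, with r = -0.72 (adjusted permutation p = 0.0111) and rho = -0.45 (adjusted p = 0.0407). Without 2 high-dose libraries that r was -0.37, and within the experiments it was -0.96, -0.13 and -0.25. Within the dose experiment it was -0.47 without its 2 farthest libraries.

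The score of the nuclear genes of oxidative phosphorylation showed no relation that passed over all libraries. It had r = -0.02 (adjusted p = 0.925) and rho = -0.27 over all libraries, and r = -0.46 without the 2 farthest. Within the anti-PD1 experiment r was -0.70 (n = 12, adjusted permutation p = 0.0508, rho = -0.74 with an adjusted p of 0.0392, and r = -0.64 without the 2 farthest libraries), so libraries with more mt- counts had lower counts of the nuclear partners, and the score of the mitochondrial expression machinery gave r = -0.73 there (adjusted p = 0.0375). That score gave 0.64 in p112, -0.48 without its 2 farthest libraries, 0.21 in p103 and -0.21 (adjusted p = 0.52) over all 32. In the dose experiment r for the nuclear genes was 0.82 and 0.04 without 2 libraries. Erythrocyte and endothelial scores and total counts gave r of 0.11, 0.05 and 0.18 with adjusted p-values of at least 0.52.

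**Figure D4:**
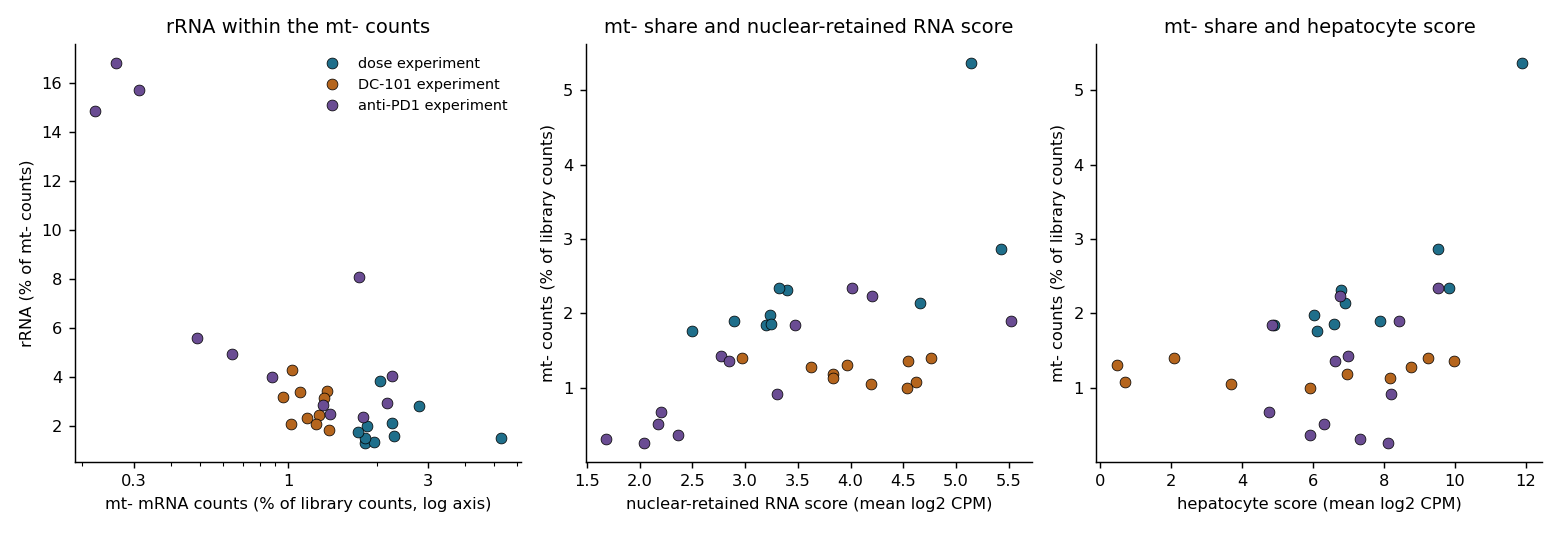
Left: rRNA as % of mt- counts against mt- mRNA as % of library counts (log axis), 1 point per library. Middle and right: mt- counts (% of library counts) against the nuclear-retained RNA score and the hepatocyte score (mean log2 CPM). The 3 points above 14% on the left are libraries of the anti-PD1 experiment with under 0.4% mt- counts, and the middle panel shows the positive relation that is absent among the DC-101 points.

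Mature tRNAs are short and lack a long poly(A) tail, and tRNA genes gave few counts. The 22 together had between 3 and 166 counts per library. Of them, 5 reached a mean of 10 counts in at least 1 group, mt-Ti, mt-Tm, mt-Tw, mt-Tt and mt-Tp, and 8 were counted below that. The sequences of mt-Tm and mt-Tp are shown because their counts set libraries apart, in the sense direction of each gene and again from the Gencode transcripts of GRCm38, mt-Tm at chrM:3845-3913 on the plus strand and mt-Tp at chrM:15356-15422 on the minus strand.
mt-Tm: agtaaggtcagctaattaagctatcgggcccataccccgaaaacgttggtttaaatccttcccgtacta
mt-Tp: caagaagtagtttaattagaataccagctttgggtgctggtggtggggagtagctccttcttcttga

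mt-Tm, the methionine tRNA just upstream of mt-Nd2, had 3, 1, 3 and 1 counts under vehicle in the DC-101 experiment, 13, 7 and 14 under the low dose and 8, 8 and 15 under DC-101. Both treated groups lay above the vehicles, with log2 changes of 2.60 (SE 0.59, edgeR adjusted p = 0.112) and 2.41 (SE 0.59, edgeR adjusted p = 0.309). mt-Tm passed the filter on low counts only through treated libraries, those with 13, 14 and 15 counts. These changes and p-values therefore cannot serve as a test of the groups. In the first high-dose library it had 46 counts. Vehicle values of 1 to 3 counts are at the limit of what this depth can show.

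The minus strand set 1 library apart. mt-Nd6 (chrM:13552-14070, minus strand), a complex I subunit, was at 10.1, 195, 10.2 and 8.46 CPM in the 4 vehicle tumours of the dose experiment, so the second held 3276 counts while the highest of the other 31 libraries was at 48.0 CPM. In that library the 8 minus-strand tRNA genes had 108 counts, 50 of them on mt-Tp, against 3, 3 and 6 in the other vehicles. Its mitochondrial share was 2.31%, against 1.84% to 1.98% in the other vehicles.

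The same library also stood apart outside the mitochondrial genome. For 467 nuclear gene pairs in which a gene lies inside an exon of another on the opposite strand, counts of the inner gene were 4.47% of those of its partners in this library and between 0.483% and 1.31% in the other 31. mt-Nd6 under the low dose had a log2 change of -2.25 against vehicle with this library and 0.29 without it. For the high dose it was -0.67 with it and 1.83 without it (edgeR adjusted p = 0.697 and 0.106). The direction of mt-Nd6 against vehicle in this experiment therefore rests on that library, while high against low dose it was 1.58 with it and 1.55 without it, and the part of the antisense counts in its value was not tested.

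**Figure D5:**
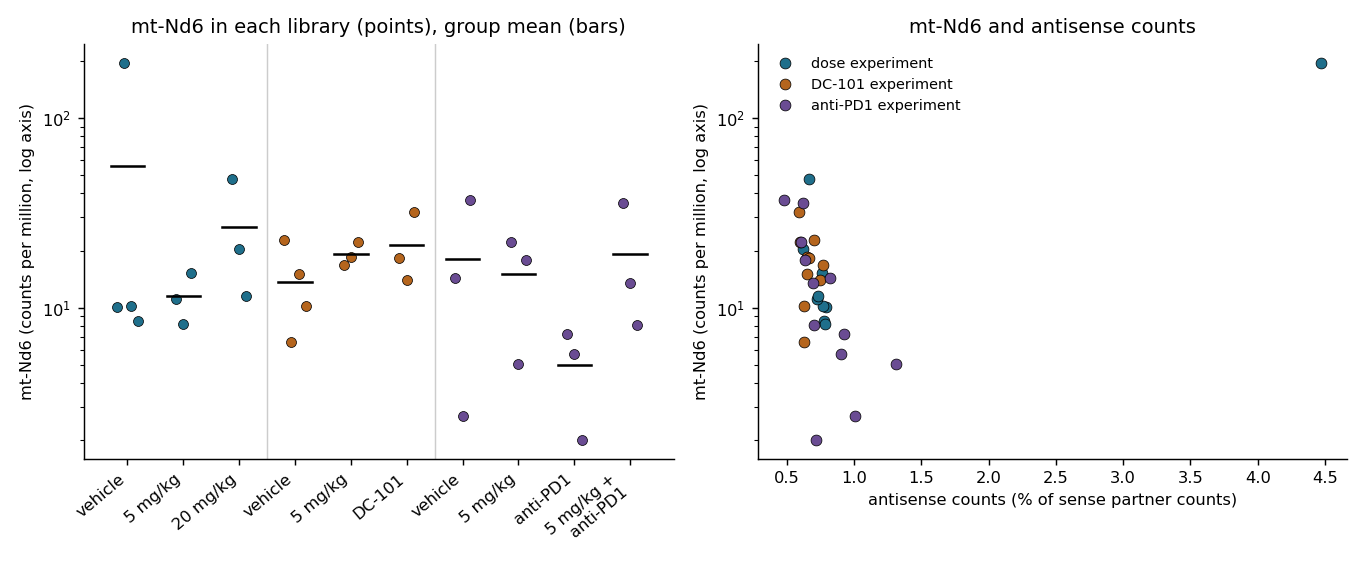
Left: mt-Nd6 CPM (log axis) in each library, with bars for the group means. Right: mt-Nd6 CPM (log axis) against the counts of nuclear antisense genes as % of their sense partners' counts. A vehicle library of the dose experiment sits at 195 CPM and 4.47%, away from the other 31.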

How the data were processed

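RNA was measured in 32 tumours by stranded poly(A) RNA-seq. Per the labels and methods, the authors trimmed reads with cutadapt 2.4 and aligned them to GRCm38 with STAR 2.7.2a. They counted genes of a Gencode annotation with STAR's GeneCounts mode. The deposited values are raw counts, neither normalized nor filtered, and the strand column taken is not given in the sources used here. Groups came from the sample titles. Of 54446 identifiers, 54409 matched Gencode (release 21, GRCm38) symbols.

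Shares are percentages of library counts computed from the deposited counts. All groups of an experiment were fitted with edgeR 4.0.16 in R 4.3.3 (filterByExpr with a minimum count of 10 and total of 15, TMM, robust quasi-likelihood F-test), with Benjamini-Hochberg adjustment over all genes tested and a threshold of 0.05. The low dose was also fitted over all experiments with the experiment as a term. Alternatives used DESeq2 1.42.0 and limma 3.58.1. Shares and ratios were compared by exact 2-sided permutation tests. Log2 CPM used a prior count of 2 and tRNA ratios a pseudocount of 1. The fits were tested on simulated data.

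The members and gene lists were chosen with earlier results of these data known. Every mt- mRNA and rRNA gene could be named, tRNA genes with a group mean of at least 10 counts, and from each list up to 3 genes per comparison that passed. Correlations of same-numbered samples exceeded 0.1 in a minority of pairs, so numbers were not treated as pairs. No library pair was a duplicate. The reads carried no molecular identifiers, so limits cover counting error only.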

Additional observations from a re-analysis of the deposited data

Results flagged for a closer look

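In the vehicle group of the dose experiment (4 libraries), the second library lay far from the other 3 in 3 measures, out of 32 checks of a measure in a group of 4, where chance sets a library apart in about 1 check in 20. Its mt-Nd6 level was 195 CPM, with the others between 8.46 and 10.2 CPM. Its log2 ratio of mt-Nd6 to the other mitochondrial mRNAs was -6.84, with the others between -11.1 and -10.8. Its summed tRNA level was 7.34 CPM, with the others between 0.351 and 1.30.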

How the results depend on the processing

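The count of called genes in the high dose against vehicle (2) was 1 with total-count scaling (1.71% of all genes called), 0 with the liver marker score as covariate (0.926%), 0 with the replicate block (0.00605%), 7 with DESeq2 (31.9%) and 3 with scaling without the mt- genes (14.9%), and between 0 and 9 with 1 library left out. Against the low dose (2) it was 1 with total-count scaling (1.2%), 0 with the replicate block (0.00605%), 3 with DESeq2 (18.5%) and between 0 and 9 with 1 library left out. The cause of these shifts was not tested. Under total-count scaling the median log2 change over all genes was -0.13 against vehicle. In every other comparison 0 mt- genes were called under each alternative run. Same-numbered libraries deviated together (r over 0.1) in 2 of 9 pairs in the dose experiment, 4 of 9 in the DC-101 experiment and 6 of 18 in the anti-PD1 experiment. The highest r were 0.56, 0.67 and 0.62. Differently numbered pairs were not set beside them, so whether the replicate numbers mark a pairing was not tested.

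The share difference of the low dose in the dose experiment turned to 0.0357 points when only genes with no shared window were summed, an alternative chosen after seeing the data, and ranged from -0.200 to 0.0853 with 1 library left out. In the DC-101 experiment it ranged from -0.0927 to 0.114. With 1 library left out, the log2 rRNA to mRNA ratio under the low dose in all experiments ranged from -0.458 to 0.0494, the tRNA to mRNA ratio from -0.221 to 0.337, and from -0.0808 to 1.23 under the high dose, and the mt-Nd6 ratio from -0.325 to 0.149, and from -0.923 to 0.497 under the high dose. The hepatocyte correlation was 0.308 when centred within treatment groups. Values of 1 to 3 counts are at the limit of this depth.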
